A study of Mus musculus with 8 samples.

Results

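T cells that carried transcripts of both Il17a and Ifng, the cytokine genes that mark T helper 17 (Th17) and T helper 1 (Th1) cells, were examined in CD4-enriched cells of the mouse colon. A cell was taken as double-positive when it stood on the authors' list of kept cells, held at least 2 unique molecular identifiers (UMIs, each standing for 1 captured transcript) of the T cell genes Cd3e, Cd3d, Cd3g, Trac and Trbc2 together, and held at most 1 UMI each of Cd79a, Col3a1 and C1qa. It also had to hold at least 2 Il17a UMIs, at least 1 Ifng UMI and none of Foxp3 and Il22. Of 27420 listed cells, 14879 met the rule apart from its Il17a and Ifng limits and are called gated T cells here, and 824 of them were double-positive.

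The cells came from the colonic lamina propria, the connective tissue under the gut epithelium, of C57BL/6 mice aged 10 to 12 weeks, and were measured in 8 droplet single-cell libraries. Mice were wildtype or carried a serine-to-alanine substitution in RORgt, named S182A in the series title and S203A in the sample titles. These mice are called mutant here, and gene counts cannot check the substitution. Untreated mice drank plain water for 10 days, and treated mice received 2% dextran sulfate sodium (DSS), a detergent-like agent that injures the colonic epithelium, for 7 days followed by 3 days of plain water. All were taken on day 10, and CD4 cells were enriched with a magnetic kit. Each of the 4 groups held 2 libraries, which the series' design text calls independent biological replicates. The labels name no cell type to which the substitution was confined.

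Th17 cells depend on transcription factors that include RORa, BATF, IRF4 and STAT3, and they respond to interleukin-23, interleukin-1 and interleukin-6. Th1 cells are driven by T-bet, the product of Tbx21, under interleukin-12 and interleukin-18. In the intestine, cells that make both interleukin-17A and interferon-gamma are known from inflamed tissue, where Th17 cells can take up Th1 genes under interleukin-23 and interleukin-12.

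The 250 bases before the start of 4 genes are shown because Il17a and Ifng define the cells, Il17f moves with Il17a, and Nkg7 had the smallest adjusted p against T cells with Il17a alone. Sequences are from RefSeq on GRCm38.p6 and run 5′ to 3′ on the gene's strand, each window ending at the base before the start. Capitals mark AGGTCA, the half-site bound by ROR receptors, or AGGTGT, the core bound by T-box factors, on either strand. The motifs share the letters AGGT but cannot lie on the same bases of 1 strand. The Il17a window is chr1:20730655-20730904 (plus strand), the Il17f window chr1:20784271-20784520 (minus strand), the Ifng window chr10:118440796-118441045 (plus strand) and the Nkg7 window chr7:43436888-43437137 (plus strand).
Il17a: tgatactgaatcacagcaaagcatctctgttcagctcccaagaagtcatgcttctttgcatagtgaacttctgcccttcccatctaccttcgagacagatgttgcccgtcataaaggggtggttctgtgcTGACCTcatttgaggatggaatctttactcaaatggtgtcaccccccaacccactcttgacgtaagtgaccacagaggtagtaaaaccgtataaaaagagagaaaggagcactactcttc
Il17f: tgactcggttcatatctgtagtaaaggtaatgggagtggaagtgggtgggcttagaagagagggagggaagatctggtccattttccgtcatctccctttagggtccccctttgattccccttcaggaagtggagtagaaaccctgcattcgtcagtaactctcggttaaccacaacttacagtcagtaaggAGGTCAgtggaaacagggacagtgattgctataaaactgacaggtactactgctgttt
Ifng: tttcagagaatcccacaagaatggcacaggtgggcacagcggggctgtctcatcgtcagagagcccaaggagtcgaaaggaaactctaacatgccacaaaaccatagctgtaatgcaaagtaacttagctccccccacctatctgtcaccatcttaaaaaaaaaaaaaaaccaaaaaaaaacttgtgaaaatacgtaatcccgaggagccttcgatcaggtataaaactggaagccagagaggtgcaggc
Nkg7: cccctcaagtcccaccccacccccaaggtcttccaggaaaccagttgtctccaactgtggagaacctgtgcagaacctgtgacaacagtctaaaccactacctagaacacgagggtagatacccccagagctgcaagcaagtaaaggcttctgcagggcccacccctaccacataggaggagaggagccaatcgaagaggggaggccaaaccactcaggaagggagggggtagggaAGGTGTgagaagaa
The Il17a window held AGGTCA on the opposite strand, written TGACCT, 120 bases before the start, and the Il17f window held it 58 bases before the start. The Nkg7 window held AGGTGT 14 bases before the start, and the Ifng window held neither motif. Among 32851 windows of the same length, 14.0% held AGGTCA, 11.8% held AGGTGT and 1.89% held both.

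The double-positive cells numbered 82 and 104 in the untreated wildtype libraries, 61 and 143 in the untreated mutant, 119 and 55 in the DSS-treated wildtype and 186 and 74 in the DSS-treated mutant libraries. Libraries held 34497509 to 46960005 UMIs in all, of which the double-positive cells gave 162633 to 617643. Median UMIs per double-positive cell lay between 2240 and 4605 over the libraries. These medians were higher than those of cells with Ifng alone in 8 of 8 libraries and higher than those of cells with Il17a alone in 6 of 8. All 824 cells held a Cd4 UMI, as did every listed T cell with either cytokine alone or neither, so this follows the list and is no trait of the double-positive cells. The libraries shared at most 9 cell barcodes by pair, and 0 barcodes were shared between double-positive cells of different libraries.

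The cells were chosen by their Il17a and Ifng UMIs, and by those of Foxp3, Il22 and the T cell and other-cell genes of the rule, so the levels of these genes are a description. The 824 cells held 8448 Il17a UMIs and 2391 Ifng UMIs, and the library medians ran from 4 to 8.5 UMIs per cell for Il17a and from 1 to 2 for Ifng. Just inside the limits stood 115 cells with 2 Il17a UMIs and 360 with 1 Ifng UMI. At the other end, 289 cells held 10 or more Il17a UMIs and 140 held 5 or more of Ifng. Just outside stood 161 cells with 1 Il17a UMI and Ifng, 347 cells that failed on Il22 alone and 88 that failed on Foxp3 alone. Free RNA in the droplets can place such transcripts in other cells. The barcodes counted for this were chosen to hold no UMI of the T cell genes of the rule. Barcodes with stray transcripts of those genes were thus left out, so the shares below can be too low. Both limits were met by 7 of 6380 fibroblast barcodes (0.110%), 2 of 7071 macrophage barcodes (0.0283%) and 0 of 3352 B cell barcodes, which allows a share of up to 0.0895%. Of those 7 fibroblast barcodes, 3 stood among the 432 of DSS-treated mutant replicate 2. The Ifng limit alone was met by 64 fibroblast (1.003%), 70 macrophage (0.990%) and 18 B cell barcodes (0.537%). A stray Ifng UMI is enough to turn an Il17a cell double-positive. Its part in the 360 cells with 1 Ifng UMI was not tested. Library medians ran from 3929 to 7438 UMIs in those fibroblast, 2467 to 5101 in macrophage and 3280 to 11304 in B cell barcodes, ranges that overlap the 2240 to 4605 of the double-positive cells.

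Ifng was found more often in cells with at least 2 Il17a UMIs than in cells with 0. Among gated T cells with at least 2 Il17a UMIs, the share with Ifng ran from 27.4% to 44.4% over the 8 libraries, with a median of 35.1%. Among cells with 0 Il17a UMIs it ran from 10.1% to 28.2%, with a median of 21.5%. The share was higher in the Il17a cells of 8 of 8 libraries. Cells with 1 Il17a UMI lay near those with 0, at 15.98% to 27.8% with a median of 22.1%, and were the lower of the pair in 3 libraries. After thinning listed cells to 1000 UMIs and applying the rule again, the shares were 16.1% to 28.8% and 4.76% to 16.2%. They were again higher with at least 2 Il17a UMIs in 8 of 8 libraries. Cells with 1 Il17a UMI then lay at 7.58% to 24.5%, with a median of 14.3% against 10.4% with 0. In untreated mutant replicate 1 they lay above the cells with at least 2, at 24.5% against 20.3%. Listed cells under 1000 UMIs, 22 to 154 per library, were left out. Cells that failed the Foxp3 or Il22 limit at full depth could enter, so the thinned shares cover a different set of cells.

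Across the groups, double-positive cells made up 4.77% and 6.15% of gated T cells in untreated wildtype, 4.20% and 8.35% in untreated mutant, 5.79% and 2.89% in DSS-treated wildtype and 9.78% and 3.03% in DSS-treated mutant mice. The highest and the second lowest share thus came from the same group. The mean was 5.37% ± 3.23 (SD, n = 4) with DSS and 5.87% ± 1.85 without, a difference of -0.496 percentage points (two-sided exact permutation p = 0.743, adjusted 0.829 over 4 tests). In mutant mice it was 6.34% ± 3.24 and in wildtype mice 4.90% ± 1.46 (n = 4 each), a difference of 1.44 points (two-sided exact permutation p = 0.429, adjusted 0.829). Neither difference exceeded the spread between libraries.

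The share of Il17a cells that also held Ifng separated by treatment before adjustment. In untreated mice it was 41.4% and 44.4% in wildtype and 43.6% and 37.0% in mutant libraries, and after DSS it was 30.4%, 28.9%, 27.4% and 33.3% in the same order. Every untreated library lay above every treated one, with means of 41.6% ± 3.35 and 30.0% ± 2.51 (SD, n = 4 each). The difference of -11.6 points gave a two-sided exact permutation p of 0.0286, the smallest that 4 against 4 can give. The adjusted p was 0.114, which did not pass 0.05. A lone test at that smallest p cannot pass after adjustment over 4 tests, so the adjusted value cannot decide this difference. The share with Ifng among cells with 0 Il17a UMIs was 19.7% to 28.2% untreated and 10.1% to 23.3% after DSS. These ranges overlap, and the difference was not tested. After thinning to 1000 UMIs the means were 23.6% ± 3.72 and 19.9% ± 5.02 (n = 4 each, exact permutation p = 0.286, adjusted 0.571) and the groups overlapped. Between genotypes the mean share differed by -0.968 points (two-sided exact permutation p = 0.829, 35.3% ± 6.75 in 4 mutant and 36.3% ± 7.79 in 4 wildtype libraries). After thinning that difference was -5.17 points (19.1% ± 3.31 and 24.3% ± 4.38, n = 4 each, exact permutation p = 0.143, adjusted 0.571).

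**Figure D1:**
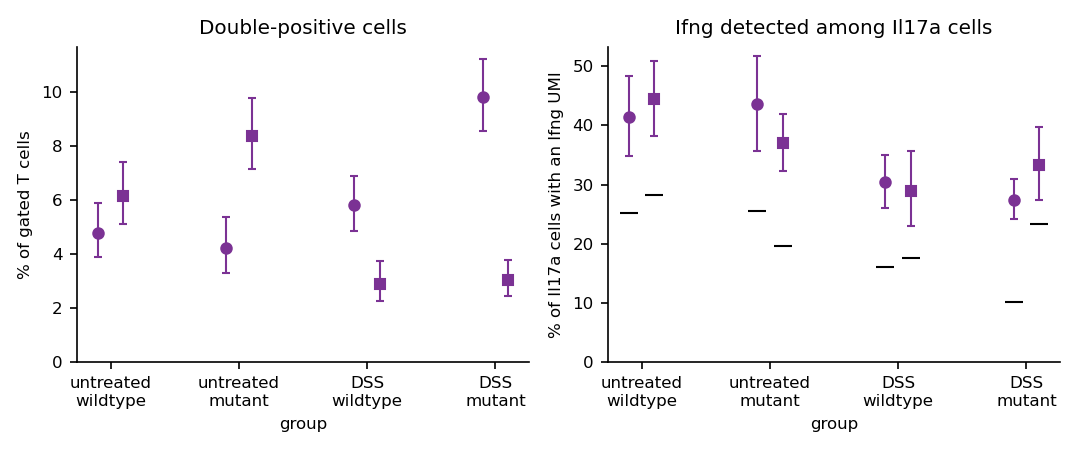
Left, double-positive cells as % of gated T cells; right, % of cells with at least 2 Il17a UMIs that also hold Ifng, by group (circle, replicate 1; square, replicate 2; bars, 95% Wilson intervals, which cover counting error only). Black dashes on the right give the % with Ifng among cells with 0 Il17a UMIs, which lie below the Il17a cells in all 8 libraries.

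The next question was which other genes set the double-positive cells apart from T cells with 1 of the cytokines. They were compared with 1617 Il17a-only cells (at least 2 Il17a UMIs, 0 Ifng) and 2449 Ifng-only cells (at least 1 Ifng UMI, 0 Il17a), with the rest of the rule the same. Cells with 0 UMIs of Ifng or Il17a are not shown to lack that transcript, so these populations can hold cells with both. The part of such cells in the numbers of genes called was not tested. UMIs were summed per library and population, the 12 genes of the rule and Cd4 were removed, and 5779 genes were tested with edgeR's quasi-likelihood test with the library as a block. Fold changes are log2 values ± SE, called at a Benjamini-Hochberg adjusted p below 0.05. The SE was derived from the test, as the size of the log2 change divided by the square root of its F statistic. Levels are UMIs of the gene scaled to the population's total in that library (CPM). Both comparisons use the same double-positive sums, so they are not independent of each other.

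Against Ifng-only cells the double-positive cells were higher in 12 of 17 tested Th17 genes and lower in 9 of 19 Th1 and 9 of 11 cytotoxic genes, with 3 Th1 genes higher. Of the 5779 genes, 615 (10.6%) were called, 321 higher (5.55%) and 294 lower (5.09%). Against Il17a-only cells only 28 genes (0.485%) were called, 19 higher (0.329%) and 9 lower (0.156%). Those 19 included genes of the Th1 and cytotoxic lists.

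Of the Th17 list, 17 of 21 genes were abundant enough to test. Against Ifng-only cells 12 of them were higher and 0 lower, with a median of 1.17 against -0.02 over all genes, and against Il17a-only cells 1 was higher and 1 lower, with a median of -0.03 against -0.00. Il6ra, Cd163l1 and Blk were among those too sparse to test.

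Among the cytokines and chemokines, Il17f, the close relative of Il17a, had a lowest, median and highest level of 32.3, 198 and 281 CPM in double-positive cells over the 8 libraries. It lay at 135, 197 and 505 CPM in Il17a-only cells and at 0, 3.35 and 10.0 CPM in Ifng-only cells, so the double-positive and Ifng-only libraries did not overlap. Only DSS-treated mutant replicate 2, at 32.3 CPM, stood below the rest. The log2 difference was 5.64 ± 0.29 against Ifng-only (edgeR adjusted p = 5.46e-16) and -0.31 ± 0.16 against Il17a-only cells (0.669). Ccl20, which draws CCR6-bearing cells, was higher by 4.36 ± 0.31 against Ifng-only cells (1.17e-12). Its level ran from 12.4 to 496 CPM in double-positive cells, with the highest in untreated mutant replicate 2. Cxcl3, a neutrophil-attracting chemokine, was higher by 3.71 ± 0.22 (7.71e-15), at 206 ± 104 against 16.1 ± 14.4 CPM (SD, n = 8). Il21, a helper cytokine, was the listed gene that was higher against Il17a-only cells, by 1.17 ± 0.28 (0.0451), at 28.6 ± 15.4 against 13.2 ± 7.92 CPM, and it lost the call when any of 5 libraries was left out.

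Receptor genes for interleukin-23 and interleukin-1 were higher than in Ifng-only cells and were not called against Il17a-only cells. Il6st, a chain of the interleukin-6 receptor, passed neither comparison. Il23r, the specific chain of the interleukin-23 receptor, had a lowest, median and highest level of 9.95, 32.7 and 65.0 CPM in double-positive, 16.4, 36.9 and 65.0 CPM in Il17a-only and 3.23, 5.58 and 12.5 CPM in Ifng-only cells. Double-positive levels were above Ifng-only levels in 8 of 8 libraries, by 2.40 ± 0.25 (edgeR adjusted p = 5.94e-09), while the difference from Il17a-only cells was -0.17 ± 0.19 (adjusted p = 0.9). Il1r1, the signalling receptor for interleukin-1, was at 94.9 ± 30.1, 107 ± 38.5 and 18.3 ± 10.9 CPM in the same 3 populations, a difference of 2.49 ± 0.20 from Ifng-only cells. Il1r2, the decoy receptor, differed by 2.14 ± 0.11 and Il17re, part of an interleukin-17 family receptor, by 2.61 ± 0.33.

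Ccr6, the receptor for the Ccl20 chemokine, was the listed Th17 gene called in both comparisons, with a level between those of the other populations. Its median was 15.9 CPM in double-positive cells (range 0 to 27.9), 39.3 CPM in Il17a-only cells (3.64 to 61.6) and 3.36 CPM in Ifng-only cells (0 to 6.92). It was lower than in Il17a-only cells by -1.08 ± 0.26 (edgeR adjusted p = 0.0448, higher in 1 of 8 libraries) and higher than in Ifng-only cells by 2.24 ± 0.37 (4.07e-05). The first call was lost when any of 7 libraries was left out and had an adjusted p of 0.0581 in DESeq2, while 60 UMIs of Ccr6 in all stood behind the double-positive level.

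The transcription factors of the list differed less. Rora was at 1226 ± 234 CPM in double-positive, 1229 ± 147 in Il17a-only and 791 ± 135 in Ifng-only cells, a difference of 0.59 ± 0.06 from the last (2.39e-08). Irf4 was higher than in Ifng-only cells by 0.64 ± 0.14 and Ahr, the aryl hydrocarbon receptor, by 0.35 ± 0.09. Maf, Batf and Stat3 passed neither comparison. Tmem176a and Tmem176b, a pair of membrane channel genes, were higher than in Ifng-only cells by 1.32 ± 0.14 and 1.17 ± 0.11.

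Tbx21, the gene of the Th1 lineage factor, was seen in a mean of 10.8% ± 4.33 of double-positive cells over the 8 libraries, 4.32% ± 2.09 of Il17a-only and 12.5% ± 5.27 of Ifng-only cells (SD, n = 8). After thinning to 1000 UMIs the means were 3.30%, 1.87% and 4.43%, and a cell without a UMI is not shown to lack the transcript.

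Of the Th1 list, 19 of 22 genes were tested. Against Il17a-only cells 4 were higher, namely Nkg7, Il12rb2, Ccl5 and Il18rap, and 0 lower. Against Ifng-only cells 9 were lower and 3 higher, namely Cxcr6, Id2 and Bhlhe40. The list medians were 0.11 and -0.24.

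Nkg7, a membrane protein of cytotoxic granules, had a lowest, median and highest level of 108, 171 and 218 CPM in double-positive cells, 43.4, 68.9 and 135 CPM in Il17a-only and 143, 286 and 359 CPM in Ifng-only cells. Double-positive cells were above Il17a-only cells in 8 of 8 libraries, by 1.04 ± 0.14 (edgeR adjusted p = 7.39e-05), and below Ifng-only cells by -0.77 ± 0.11 (6.08e-06). Il12rb2, the inducible chain of the interleukin-12 receptor, stood at 61.2 ± 17.4, 32.5 ± 13.5 and 124 ± 23.5 CPM (SD, n = 8) in the same order. It was higher by 0.92 ± 0.16 (0.00318, 7 of 8 libraries) and lower by -1.06 ± 0.13 (1.07e-07, lower in 8 of 8). Both genes therefore lay between the single-cytokine populations.

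Ccl5, a chemokine of effector T cells, stood at 258 ± 110 CPM in double-positive, 131 ± 30.4 in Il17a-only and 1093 ± 359 in Ifng-only cells. It was higher than in Il17a-only cells by 0.91 ± 0.15 (edgeR adjusted p = 0.00162) and lower than in Ifng-only cells by -2.13 ± 0.13 (1.59e-14), so it stayed nearer to the Il17a-only level. Among cells of 1500 to 6000 UMIs the first call was lost (edgeR adjusted p = 0.341). Il18rap, a chain of the interleukin-18 receptor, was at 117 ± 23.3 CPM against 76.0 ± 15.7 in Il17a-only cells, higher by 0.57 ± 0.12 (0.0242, 8 of 8 libraries), and at 117 ± 24.8 in Ifng-only cells, a difference of -0.05 ± 0.11. This call was lost without any 1 of the 4 DSS-treated libraries.

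Tbx21 itself had a median of 30.1 CPM in double-positive (13.2 to 43.0), 12.7 in Il17a-only (2.73 to 27.3) and 46.3 in Ifng-only cells (17.4 to 61.6). It was above the Il17a-only level in 8 of 8 libraries, but the difference of 0.90 ± 0.24 did not pass the threshold (edgeR adjusted p = 0.119). The difference from Ifng-only cells, -0.69 ± 0.19, did (0.0102), and was lost without untreated mutant replicate 2 and in DESeq2 (adjusted p = 0.0641). Cxcr3, the Th1 homing receptor, was at 27.6 ± 7.24, 25.3 ± 6.99 and 43.8 ± 10.3 CPM in double-positive, Il17a-only and Ifng-only cells, lower than in the last by -0.67 ± 0.17 (0.00668). Cxcr6, another tissue-homing receptor, went the other way, at 511 ± 175 CPM against 266 ± 103 in Ifng-only cells (0.91 ± 0.11, 1.73e-07).

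**Figure D2:**
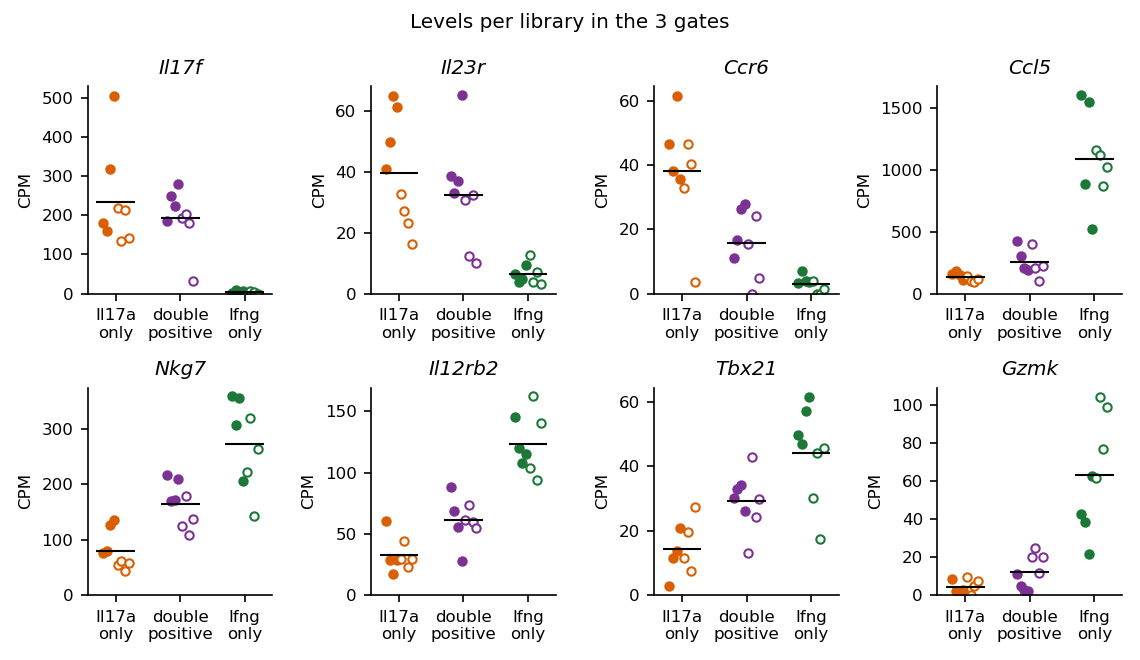
Levels in CPM per library of 8 genes in Il17a-only, double-positive and Ifng-only cells (filled, untreated; open, DSS; line, mean of 8 libraries). Il17f and Il23r of double-positive cells overlap the Il17a-only values apart from 1 or 2 low libraries, while Nkg7, Il12rb2 and Tbx21 means lie between those of the other populations.

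Of the cytotoxic list, 11 of 17 genes were tested. Against Il17a-only cells 5 were higher, namely Nkg7, Ctsw, Fasl, Serpinb9 and Serpinb6b, with a list median of 0.75, and against Ifng-only cells 9 were lower, with a median of -0.68. With 1 library left out the counts were 3 to 4 and 7 to 8. The higher genes are a granule protein, a cathepsin of killer cells, the death ligand gene Fasl and serpins that inhibit granule proteases. Serpinb6b had a lowest, median and highest level of 52.0, 94.5 and 186 CPM in double-positive cells and 13.7, 47.9 and 81.8 CPM in Il17a-only cells, higher in 8 of 8 libraries by 1.09 ± 0.16 (edgeR adjusted p = 1.27e-04, and 0.0629 among cells of 1500 to 6000 UMIs). Serpinb9 differed by 1.12 ± 0.19 (0.00216), Ctsw by 0.83 ± 0.19 and Fasl by 0.75 ± 0.17 (0.0242 each). The Ctsw call was lost when any of 7 libraries was left out and the Fasl call with any of 6.

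No granzyme was called against Il17a-only cells. Gzmk, a granzyme of effector-memory cells, had a median of 11.2 CPM in double-positive cells (1.86 to 24.6), 3.47 CPM in Il17a-only (0 to 9.50) and 62.1 CPM in Ifng-only cells (21.8 to 104). It was lower than in Ifng-only cells by -2.52 ± 0.24 (edgeR adjusted p = 1.21e-09, lower in 8 of 8 libraries), and its difference of 1.26 ± 0.41 from Il17a-only cells did not pass (0.353). Gzmb was at 79.7 ± 27.5, 89.6 ± 34.8 and 127 ± 55.7 CPM in double-positive, Il17a-only and Ifng-only cells. Gzma was at 63.4 ± 54.9, 42.3 ± 46.0 and 124 ± 58.7 CPM. The Gzma call against Ifng-only cells was lost in 4 leave-outs and the Gzmb call in 2 and in DESeq2 (adjusted p = 0.140). Prf1, the perforin gene, was too sparse to test.

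**Figure D3:**
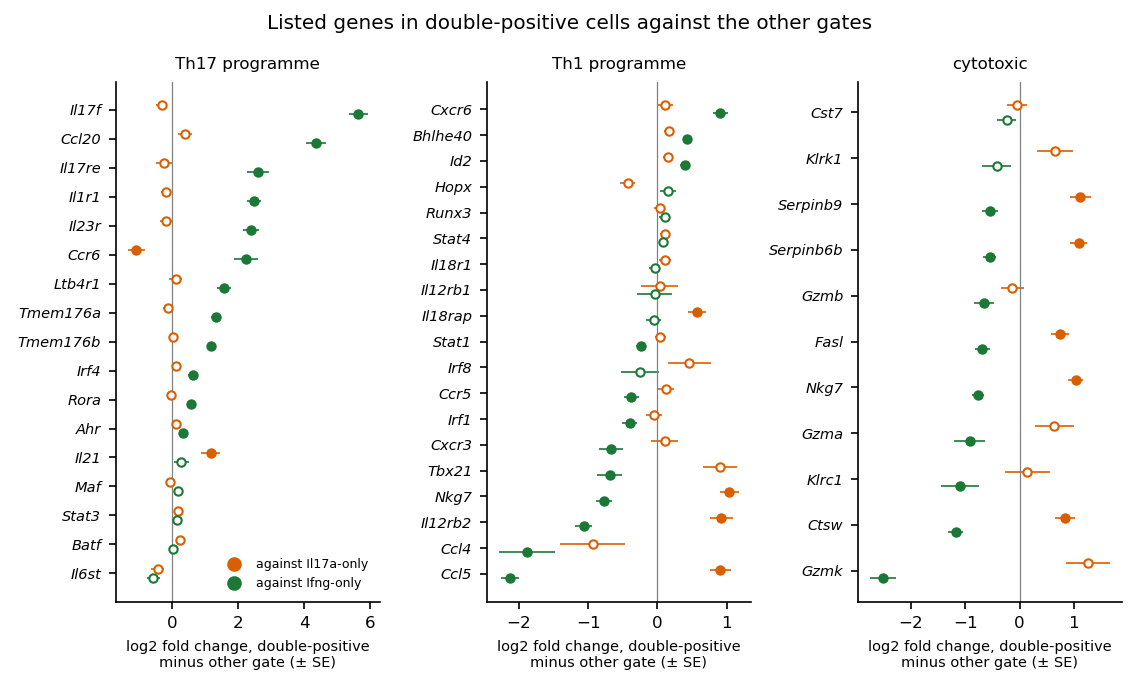
Log2 fold change ± SE of the tested Th17, Th1 and cytotoxic list genes in double-positive cells, against Il17a-only (orange) and Ifng-only cells (green); filled points passed an adjusted p of 0.05. Against Ifng-only cells 12 Th17 genes lie to the right of 0, and against Il17a-only cells the filled points are mostly Th1 and cytotoxic genes.

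All 28 calls against Il17a-only cells rested on pairing the populations within libraries. Without the library as a block, 0 genes were called (214 at an unadjusted p under 0.05), against 307 for the comparison with Ifng-only cells. Markers of other cells were also present. Among double-positive cells, 46.0% held a UMI of 8 macrophage markers and 93.1% one of 8 B and plasma cell markers, against 43.4% and 93.8% of Il17a-only cells. When cells with a UMI of CD8, gamma-delta, B, plasma, fibroblast, macrophage or epithelial genes were left out, 272 of 824 double-positive cells remained and 1 gene, Serpinb9 (adjusted p = 0.0199), was called against Il17a-only cells. With fewer cells, only 2802 genes were tested in either comparison, and 280 of them were called against Ifng-only cells.

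Lists beyond the lineage programmes mostly followed the Ifng-only comparison. Of 14 tested genes of the pathogenic Th17 signature, reported for Th17 cells that cause autoimmune disease, 6 were higher and 5 lower than in Ifng-only cells, and 1, Ccl5, was higher than in Il17a-only cells. Csf2, its best-known cytokine, gave 6 UMIs in all double-positive cells and was not tested. Of 11 tested other cytokines, Areg, an epithelial growth factor, was higher than in Ifng-only cells by 1.84 ± 0.14 (edgeR adjusted p = 9.19e-12), at 889 ± 530 against 228 ± 111.8 CPM, and Tgfb1 by 0.47 ± 0.07. Tnf and Il10 passed neither comparison. Of 8 checkpoint receptors, Havcr2 and Ctla4 were higher than in Ifng-only cells, by 1.5 ± 0.17 and 0.58 ± 0.07, and Entpd1 was lower by -0.76 ± 0.25. The Entpd1 call (edgeR adjusted p = 0.0442) was lost in 4 of 6 leave-outs, without the block (0.114) and in DESeq2 (0.183).

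Of 10 tested quiescence and memory genes, 5 were lower than in Ifng-only cells and 0 than in Il17a-only cells. The Il7r call was lost in 6 leave-outs and in DESeq2 (adjusted p = 0.101), the S1pr1 call in 5 leave-outs and the Lef1 call in 1. Klf2, which keeps T cells resting and circulating, was lower by -0.73 ± 0.10 and Tcf7, a memory factor, by -0.69 ± 0.11. Proliferation genes gave 0 of 10 calls in either comparison. Mki67, a cycling marker, was seen in a mean of 16.8% ± 6.91 of double-positive, 12.1% ± 4.33 of Il17a-only and 14.4% ± 4.16 of Ifng-only cells (SD, n = 8), and in 7.25%, 6.13% and 7.02% after thinning. Of 28 activation genes, Fosb was the 1 called against Il17a-only cells, by 0.47 ± 0.09 (edgeR adjusted p = 0.00494, 8 of 8 libraries). Against Ifng-only cells 7 were higher, among them Jun, Junb and Cd69, and 4 lower, namely Nr4a2, Dusp2, Tnfrsf4 and Tnfrsf18. The Cd69 call was lost in 3 leave-outs and the Tnfrsf18 call in 2.

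Some genes without a place in the lists were named by the size of their change. Against Ifng-only cells Cpe, a peptide-processing enzyme, was higher by 3.11 ± 0.21, Ppp1r14c, a phosphatase inhibitor, by 2.84 ± 0.21, Pde5a by 2.32 ± 0.31 and Plcb4 by 2.28 ± 0.15. Lower were Gramd3 (-1.08 ± 0.13), the costimulatory receptor gene Cd27 (62.3 ± 11.8 against 122.3 ± 19.1 CPM) and the interferon-induced genes Gbp3 (-1.05 ± 0.16), Epsti1 (-0.87 ± 0.10) and Cxcl10 (-1.11 ± 0.28). Against Il17a-only cells Ahnak (0.33 ± 0.06) and H2-Q7 (0.30 ± 0.06) were higher, and Gclc, an enzyme of glutathione synthesis (-0.65 ± 0.15), Rassf3 (-0.44 ± 0.10) and Lars2 (-0.28 ± 0.06) were lower. The last 3 calls were lost when any of 4 or 5 libraries was left out. H2-Q7 has near-identical neighbours, so its counts are uncertain.

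Against the mean of both single-cytokine populations, 186 genes were called (3.22%), 122 higher (2.11%) and 64 lower (1.11%). With DESeq2's size factors in the same edgeR test the split was 127 higher and 40 lower. Nrgn, a calmodulin-binding protein, was above both populations, at 58.1 ± 33.1 CPM against 32.4 ± 14.6 in Il17a-only (0.84 ± 0.17, edgeR adjusted p = 0.00886, 6 of 8 libraries) and 15.02 ± 10.3 in Ifng-only cells (1.96 ± 0.19, 1.09e-09, 8 of 8). Without untreated mutant replicate 2, where it reached 106 CPM, the first call was lost, and both were read after the values had been seen. Areg was above the mean by 1.09 ± 0.12 (1.00e-07), Bhlhe40 by 0.30 ± 0.06 and Id2 by 0.28 ± 0.06. Areg, Bhlhe40 and Id2 were each called higher than in Ifng-only cells, and none of them was called against Il17a-only cells. Ccl5 was below it by -0.61 ± 0.12 (0.00177) and Klf2 by -0.41 ± 0.09.

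The design also asked how DSS and the RORgt substitution changed the cells, with 2 libraries per group and 5490 genes tested in 1 edgeR fit of the 8 double-positive sums. No gene of the Th17, Th1 or cytotoxic lists was called in any of these comparisons with all 8 libraries. With 1 library left out, at most 2 genes of a list were called for DSS in mutant mice. At most 1 was called for genotype in untreated mice and 0 for DSS in wildtype mice. Leave-outs were not counted by list for genotype after DSS or for the difference between the genotypes in their response to DSS. Il17f was at 185 and 250 CPM in untreated wildtype, 225 and 281 in untreated mutant, 193 and 202.9 in DSS-treated wildtype and 181 and 32.3 in DSS-treated mutant libraries. Nkg7 was at 218 and 170, 172 and 210, 125 and 178, and 108 and 137 CPM in the same order. The smallest adjusted p over the 5 comparisons was 0.239 for Il17f and 0.302 for Nkg7, both for DSS in mutant mice.

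In wildtype mice DSS was followed by lower Crip1 and Lmna, the only 2 of 5490 genes called (0.0364%). Crip1, a small LIM-domain protein, was at 2168 and 2337 CPM untreated and 1030 and 1008 after DSS, lower by -1.12 ± 0.17 (edgeR adjusted p = 0.0122). Lmna, which encodes lamins A and C of the nuclear envelope, was at 289 and 267 CPM untreated and 81.3 and 98.4 after DSS, lower by -1.66 ± 0.25 (0.0122). Treated and untreated libraries did not overlap for either gene, which was also a condition for naming a gene by its change. They belong to a list of 11 tested LIM, lamina and annexin genes taken from earlier results on these samples, which is not independent evidence, and its median was -0.55 against -0.00 over all genes. Either call was lost when any of the 4 wildtype libraries was left out, with adjusted p up to 0.345. Both were lost with at least 3 Il17a UMIs (0.0824), Lmna also among cells of 1500 to 6000 UMIs (0.262) and Crip1 with at least 2 Ifng UMIs (0.142). Summed over the marker lists, gamma-delta markers were at 30.7 and 33.1 CPM untreated and 57.1 and 67.6 after DSS in these wildtype cells, and B and plasma cell markers at 2507 to 2955 and 1129 to 2183 CPM. Their part in the Crip1 and Lmna changes was not tested. Leaving out any mutant library instead gave 13 to 15 called genes.

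In mutant mice DSS was followed by 29 called genes (0.528%), 9 higher (0.164%) and 20 lower (0.364%). Lmna fell again, from 211 and 193 to 58.3 and 79.6 CPM (-1.59 ± 0.24, edgeR adjusted p = 0.00463), and Crip1 from 1504 and 1552 to 894 and 905 CPM (-0.78 ± 0.17, 0.0472). The Crip1 call was lost when any of 6 libraries was left out, the Lmna call with none. Of the 11 heat-shock and stress genes 6 were lower, with a median of -1.24 against 0.00. Hspd1, a mitochondrial chaperone, fell from 1129 and 1268 to 311 and 286 CPM (-2.02 ± 0.29, 0.00361), and Hsp90aa1, a cytosolic chaperone, from 5446 and 6209 to 1763 and 1723 CPM (-1.76 ± 0.25, 0.00351). Hspb1, a small heat-shock protein gene outside that list, fell by 4.23 ± 0.66 on the log2 scale (0.00528) from 248 and 61.3 to 11.3 and 2.49 CPM. With at least 1 Il17a UMI in place of 2, the Hspb1 difference was -1.89 (adjusted p = 0.289). A fit of only the 4 mutant libraries called 3 genes, all of them lower and among the 29, Hspd1 (0.0154) being 1 of them.

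Also lower after DSS in mutant mice were 2 genes that antigen-presenting cells express strongly, among other calls such as the stress-induced factors Atf3 and Jund. H2-Ab1, a class II histocompatibility gene, was at 833 and 604 CPM untreated and 274 and 22.4 after DSS (-2.22 ± 0.49, edgeR adjusted p = 0.0489), and Cst3 at 746 and 1206 against 316 and 127 CPM (-2.14 ± 0.40, 0.0186). Of the 8 B and plasma cell markers, Cd74 was at 1343 and 996 CPM untreated and 541 and 29.8 after DSS, and H2-Aa at 513 and 403 against 257 and 39.8 CPM. Ms4a1 was at 0 in both DSS-treated mutant libraries and at 2.64 and 1.86 CPM in the untreated ones. The summed list lay at 2271 to 16536 CPM in untreated and 311 to 2782 CPM in DSS-treated mutant cells. Of its 4 tested genes 0 were called, with a median of -2.14, and of 2 tested macrophage markers 0, with a median of 0.35. The part of such markers in these 2 genes was not tested. The H2-Ab1 call was lost without any of 5 libraries and the Cst3 call without DSS-treated mutant replicate 2. Neither passed in DESeq2 (adjusted p = 0.427 and 0.0924) or in edgeR among cells of 1500 to 6000 UMIs (0.238 and 0.774). In the latter the H2-Ab1 difference had the opposite sign, 1.22. Higher after DSS were Lgmn (3.30 ± 0.67), Lars2 (1.38 ± 0.27), Madd (1.26 ± 0.27), Epb41 (1.22 ± 0.23) and Dgat1 (1.19 ± 0.22). Each of these 5 was lost with 2 to 6 of the 8 leave-outs, and none was called in the fit of only the 4 mutant libraries. The summed fibroblast markers were at 13.2 to 147 CPM in untreated and 51.8 to 796 in DSS-treated mutant cells, and their part in these genes was not tested. Without DSS-treated mutant replicate 1 there were 79 called genes.

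In untreated mice the mutant cells were higher in 5 genes (0.0911%) and lower in 0. Of these, 4 are heat-shock genes out of the 11 listed, whose median was 1.15 against 0.00 over all genes. Hspd1 was at 237 and 550 CPM in wildtype and 1129 and 1268 in mutant libraries (1.62 ± 0.29, edgeR adjusted p = 0.0371), and Hsph1 at 215 and 481 against 1100 and 848 CPM (1.49 ± 0.28, 0.0467). Hspa1a was at 143 and 118 against 1317 and 364 CPM (2.69 ± 0.41, 0.0107), the higher value in untreated mutant replicate 1. Hspa1b (2.91 ± 0.48, 0.0174) is nearly identical in sequence to Hspa1a, so the reads of the pair cannot be told apart with certainty. DESeq2 did not call Hspd1 (adjusted p = 0.256) or Hspa1b (0.186). Igfbp7, a secreted protein of stromal cells, was at 2.75 and 9.44 against 68.7 and 106 CPM (3.77 ± 0.55, 0.0107).

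Each of the 5 calls was lost when untreated wildtype replicate 1 was left out, which left 0 called genes, and Hspa1b, Hspd1 and Hsph1 also when either DSS-treated wildtype library was. The Hspa1a and Hspa1b calls were lost without untreated wildtype replicate 2, and the Hsph1 call without untreated mutant replicate 1. Without any 1 of the mutant libraries, 10 to 18 genes were called, the most without DSS-treated mutant replicate 1, and without either DSS-treated wildtype library 3 were. In untreated mutant replicate 1 Hspa1a was also high in the other T cells, at 1978 CPM in Il17a-only and 2206 in Ifng-only cells. The 6 fibroblast markers summed to 2.75 and 11.8 CPM in untreated wildtype and 13.2 and 147 in untreated mutant cells, the last from 3 of 143 cells. Of them 2, Dcn and Mgp, were tested and 0 called, with a median of 4.30 on the log2 scale against 3.77 for Igfbp7. Pdgfra was at 0 in all 4 libraries and Col1a1 and Col1a2 in 3. The B and plasma cell markers summed to 16536 CPM in untreated mutant replicate 1, of which Igkc, an antibody chain, gave 12222. Their part in these differences was not tested.

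After DSS, 0 of 5490 genes were called between mutant and wildtype cells (143 at an unadjusted p under 0.05, DESeq2 0). The heat-shock list had a median of -0.05 there, and Hspd1 was at 367 and 221 CPM in wildtype and 311 and 286 in mutant libraries. The difference between the genotypes in their response to DSS was called for 0 genes in edgeR (230 at an unadjusted p under 0.05) and 0 in DESeq2. For Hspd1 that difference was -1.66 ± 0.42 (edgeR adjusted p = 0.667) and for Hspa1a -3.08 ± 0.58 (0.299). A different heat-shock response of the genotypes was thus not shown. Without DSS-treated mutant replicate 1, 11 genes were called between the genotypes after DSS and 9 for the difference in response.

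**Figure D4:**
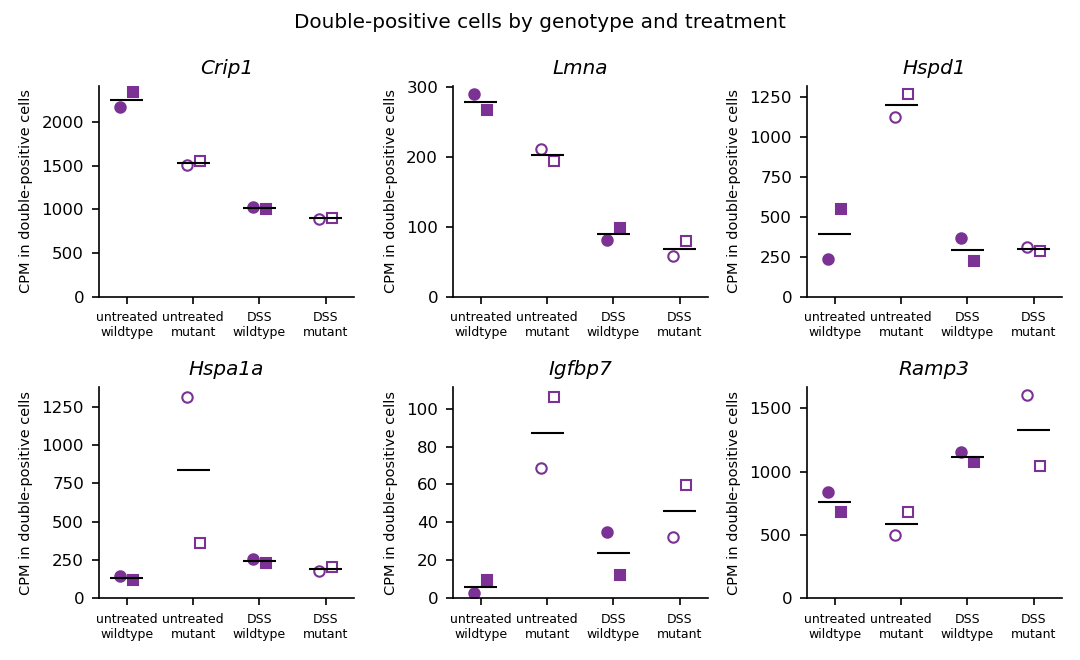
Levels in CPM of 6 genes in double-positive cells by genotype and treatment (filled, wildtype; open, mutant; circle, replicate 1; square, replicate 2; line, group mean). Crip1 and Lmna are lower after DSS in both genotypes, and Hspd1 is at 1129 and 1268 CPM in untreated mutant libraries and at 550 or less in the others.

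Markers of CD8, natural killer T and MAIT cells were rare. Cd8a or Cd8b1 was seen in 4 of 824 cells (0.485%), and markers of natural killer T and MAIT cells in 1.70%. Of 7 regulatory T cell markers beside Foxp3, at least 1 was seen in 95.1% of double-positive, 92.8% of Il17a-only and 91.9% of Ifng-only cells, with summed levels of 1501 to 2295, 1513 to 2043 and 1488 to 1932 CPM over the libraries. Ctla4, which activated T cells also express, gave 959 ± 209 CPM of the double-positive level (SD, n = 8). At least 1 of 7 innate lymphoid markers was seen in 37.1% of double-positive, 29.3% of Il17a-only and 31.3% of Ifng-only cells. Of the 4 tested, Kit was called higher than in Ifng-only cells and 0 were called against Il17a-only cells. The part of innate lymphoid cells was not tested. At least 1 of 6 gamma-delta markers was seen in 12.9% of double-positive, 10.7% of Il17a-only and 6.53% of Ifng-only cells. Among these markers is Tcrg-C1, which alpha-beta T cells can also transcribe. Trdc, the defining gamma-delta gene, was seen in 11 cells, with a mean share of 1.41% over libraries against 0.630% of Il17a-only and 0.411% of Ifng-only cells. Tcrg-C1 was itself higher than in Ifng-only cells, at 27.0 ± 12.0 against 5.22 ± 2.76 CPM (SD, n = 8). The part of gamma-delta cells in the results was not tested apart from the alternative that left such cells out.

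Few cells showed their antigen receptor in these 3′ libraries. Of 79 double-positive cells with a Trbv transcript, 6 held 2 or more different ones (7.59%). These were 1 of 15 and 3 of 7 cells in untreated wildtype and 1 of 9 and 1 of 16 in untreated mutant libraries. Each DSS-treated library gave 0. The counts were 6 of 125 Il17a-only cells (4.80%), 16 of 195 Ifng-only cells (8.21%) and 19 of 699 cells with neither cytokine (2.72%). The part of doublets in the double-positive cells was not tested. Among 73 cells with 1 Trbv gene, Trbv12-2 was seen in 13 (17.8%) and Trbv2 in 12 (16.4%). In 179 such Ifng-only cells Trbv2 was seen in 31 (17.3%) and Trbv12-2 in 22 (12.3%), and in 119 Il17a-only cells Trbv2 was seen in 22 (18.5%), Trbv13-2 in 18 (15.1%) and Trbv12-2 in 17 (14.3%).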

How the data were processed

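Droplet single-cell libraries of CD4-enriched colon cells were analysed. The authors deposited raw UMI counts per gene and barcode, 1 table per library, made with Cell Ranger 3.1.0 on mm10 and used with Seurat 4.0.1, per the submitters' processing notes. They also deposited the list of kept cells (how these were chosen is not given in the sources used here). Of the 8 tables, 7 number their rows, and gene names came from the deposited symbol list. Of the identifiers in the 1 table that has them, 98.5% had the listed symbol. UMIs of all 8 libraries lay between 34497509 and 46960005, and every barcode held at least 500.

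Groups came from sample titles. Counts were summed per library and population and tested with edgeR 4.0.16 (R 4.3.3): TMM, filterByExpr, quasi-likelihood F test, Benjamini-Hochberg over all genes tested, threshold 0.05. Populations of the same library were compared with the library as a block, since they share it. Shares were compared by exact permutation (scipy 1.17.1; 70 splits). Doublets were not called. DESeq2 1.42.0 and other thresholds, filters and depth settings were alternatives. The procedure was run on simulated sums without library effects, with planted changes larger than many of those called here. That run cannot speak for small changes or for the pairing within libraries. Titles carry animal numbers but no shared replicate numbers; replicates 1 and 2 name libraries only.

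Members and gene lists were chosen with earlier results of these data known. Genes were named when called with a mean of at least 50 CPM in the higher population and the same sign in every library (10 highest and 10 lowest log2 changes, 5 for conditions), or when on a list. For conditions, the same sign meant that libraries of the compared groups did not overlap. One gene of the Th17 list is not reported here.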

Additional observations from a re-analysis of the deposited data

Results flagged for a closer look

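Barcodes outside the authors' list were not used in the main comparisons. They entered only alternative settings and the counts of fibroblast, macrophage and B cell barcodes. Outside the list, 894 barcodes met the rest of the double-positive rule with at least 400 genes and under 20% mitochondrial UMIs, against 824 on the list. They numbered 37 to 316 per library, the most in DSS-treated mutant replicate 1. Of these 894, 195 (21.8%) held a Cd4 UMI, 5 a Cd8a or Cd8b1 UMI and 5 a Trdc UMI. On the list every T cell of the populations compared held a Cd4 UMI, so the difference in Cd4 follows from the list, and of the 824 cells 4 held a Cd8a or Cd8b1 UMI and 11 a Trdc UMI. Median UMIs per library ran from 1834.5 to 2491 outside the list.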

How the results depend on the processing

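Counts of called genes are given as the comparison with Il17a-only cells, Ifng-only cells and their mean, then DSS in wildtype, genotype untreated, genotype after DSS, DSS in mutant mice and the interaction, which were 28, 615, 186, 2, 5, 0, 29 and 0. Without a filter on low counts, 86, 42, 54, 20, 115 and 20 genes were called against Il17a-only cells and in the 5 condition comparisons. With no replicate block the population counts were 0, 307 and 43. A replicate block of neighbouring animal numbers gave 34 and 4 genes for genotype and 14 for the interaction. Deviations of the paired samples correlated at 0.0314 and 0.0842. With 2 libraries per group the deviations within a group mirror each other, so these values cannot settle whether the numbers pair the samples. This block gives no value for DSS. It left the genotype differences in shares at 1.44 and -0.968 points. With Il17a of at least 1, DSS in wildtype gave 5 genes and genotype 13 and 1. With Il17a of at least 3, 10 genes were called against Il17a-only cells and 0 for DSS in wildtype. With Ifng of at least 2, DSS in wildtype gave 5, genotype after DSS 1 and the interaction 2. Cells of 1500 to 6000 UMIs gave 54 against Il17a-only cells, 290 against the mean, 1 for DSS in wildtype, 1 for genotype after DSS and 52 for DSS in mutant mice. Adding barcodes outside the list gave 54, 1058 and 395 for populations, 2 for genotype untreated and 53 for DSS in mutant mice. Leaving out cells with UMIs of other cell types gave 1, 280 and 49 of 2802 genes tested. Conditions were not run there. Fitting only the 4 libraries compared gave 25 of 4700 genes for DSS in wildtype, 12 of 4735 for genotype untreated and 3 of 5196 for DSS in mutant mice. Leaving out each library gave 11 to 24, 492 to 583, 117 to 183, 0 to 15, 0 to 18, 0 to 11, 19 to 79 and 0 to 9 genes. DESeq2 gave 26, 522, 170, 2, 5, 0, 26 and 0. The cause of these changes was not tested. In the main fits 5779 genes were tested for populations and 5490 for conditions, and these numbers differed by setting. They were 17419 and 14438 without a filter on low counts. They were 6608 and 6309 with Il17a of at least 1, and 5339 and 5044 with at least 3. With Ifng of at least 2 they were 4769 and 4122. They were 4664 and 3490 for cells of 1500 to 6000 UMIs, and 7559 and 6730 with barcodes outside the list.

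The difference in double-positive share with DSS turned to 0.0345 points after thinning and 0.172 with barcodes outside the list, and ran from -1.97 to 0.332 when 1 library was left out, turning positive without untreated mutant replicate 2 or either second DSS-treated library. The genotype difference ran from 0.294 to 2.55. For the share with Ifng among Il17a cells, DSS gave -13.1 to -10.6 with 1 library left out, and genotype -3.72 to 1.75, turning positive without either untreated wildtype library or DSS-treated mutant replicate 1, -5.17 after thinning, 0.301 with Il17a of at least 1, 0.475 with Ifng of at least 2 and 1.33 with barcodes outside the list. The 65 pairs of a gene and a comparison that were named by size of change gave 1145 values under other settings. A gene can stand in several pairs, and genes named only from the lists were not counted. Of these values 982 kept direction and call, 162 lost the call, and 1 changed sign: H2-Ab1 for DSS in mutant mice, 1.22 among cells of 1500 to 6000 UMIs.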
